A study of Homo sapiens with 6 samples.

Results

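Aminoacyl-tRNA synthetases attach each amino acid to its matching tRNA, the step that sets the genetic code before the ribosome reads it. The genes described here were chosen by name from a table of 20042 genes: 20 cytosolic synthetase genes, 16 mitochondrial synthetase genes (those with the suffix 2) and 3 genes of scaffold proteins that hold several cytosolic enzymes together, 39 in all. All 39 were found in the table by Ensembl identifier, and all 39 passed the filter on low counts. They were measured by RNA sequencing in 3 MDA-MB-231 cultures given siRNA-1 against ERBBride and 3 given a control siRNA (siCTRL). MDA-MB-231 is a human triple-negative breast cancer line in wide use, siRNAs are small duplexes that direct the breakdown of matching transcripts, and the series title speaks of a long non-coding RNA without naming it. The labels give the genotype as an ERBBride knockdown for the siRNA-1 cultures and as wild type for the siCTRL cultures, and they number the libraries as biological replicates. As the dose, the time after transfection and the source of each culture were not stated, p-values measure only the spread between these 6 libraries, which may be technical.

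Human cells use separate sets of these enzymes in the cytosol and in mitochondria, nearly all encoded by different nuclear genes. GARS1 and KARS1 are the exceptions, since each gene supplies the glycine or the lysine enzyme to both compartments. The enzymes fall into a pair of unrelated structural classes, I and II. When amino acids run short, uncharged tRNA activates the kinase GCN2 (EIF2AK4), and the transcription factor ATF4 then induces amino acid synthesis and transport genes and many cytosolic synthetase genes. Tumour cells are known to depend on a high supply of charged tRNA.

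Levels are CPM, the share of a library's counts scaled with TMM factors (trimmed mean of M values). Fold changes are siRNA-1 over siCTRL, from the quasi-likelihood test of edgeR, adjusted over all 12440 genes tested (Benjamini-Hochberg, two-sided, threshold 0.05). Library totals ranged from 12813706 to 15014434 counts, and 3 counts corresponded to at most 0.233 CPM, a limit for counting error only. Of the markers of this line, VIM, CD44, CAV1, AXL and EGFR averaged 350.3 CPM or more in each group. ESR1 averaged 0.115 CPM in siRNA-1 and 0.0228 CPM in siCTRL cells, and PGR and the T cell gene CD3E had 0 counts in all libraries. GATA3 averaged 4.40 CPM in siRNA-1 and 11.2 CPM in siCTRL cells, and the endothelial gene PECAM1 averaged 4.11 CPM in siRNA-1 and 7.46 CPM in siCTRL cells. No row of the table was named ERBBride, so its knockdown was not analysed here. The library siCTRL 2 stood apart from the other controls along the second principal component, at -22.3, whereas the other 5 libraries lay between -2.90 and 13.3.

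Cytosolic synthetase transcripts were mostly lower in siRNA-1 cells, mitochondrial ones mostly did not pass the test, and the scaffold genes rose. Of the 39 genes 26 changed (66.7%, where 62.5% of all genes tested changed), 15 of them downwards (38.5%, against 31.0% of all genes) and 11 upwards (28.2%, against 31.5%). The groups did not overlap in 27 of the 39 (69.2%, where the share over all genes tested was 67.6%). As a whole the genes therefore changed about as often as any others. Of 20 cytosolic enzymes 12 fell, 5 rose and 3 did not pass. Their median log2 fold change was -0.25, where that of all genes tested was 0.0059. Of 16 mitochondrial enzymes 3 fell, 3 rose and 10 did not pass, with a median of 0.047. All 3 scaffold genes rose, with a median of 0.31. Most changes were small: 22 of the 26 were under 1.5-fold, and 1 was at least 2-fold lower, as were 8.14% of all genes tested. That gene, IARS1, lay at the 2-fold limit itself, with a log2 fold change between -1.07 without siCTRL replicate 1 and -0.93 without siCTRL replicate 2. In bulk RNA, fewer cells of a type and less RNA per cell cannot be told apart.

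**Figure D1:**
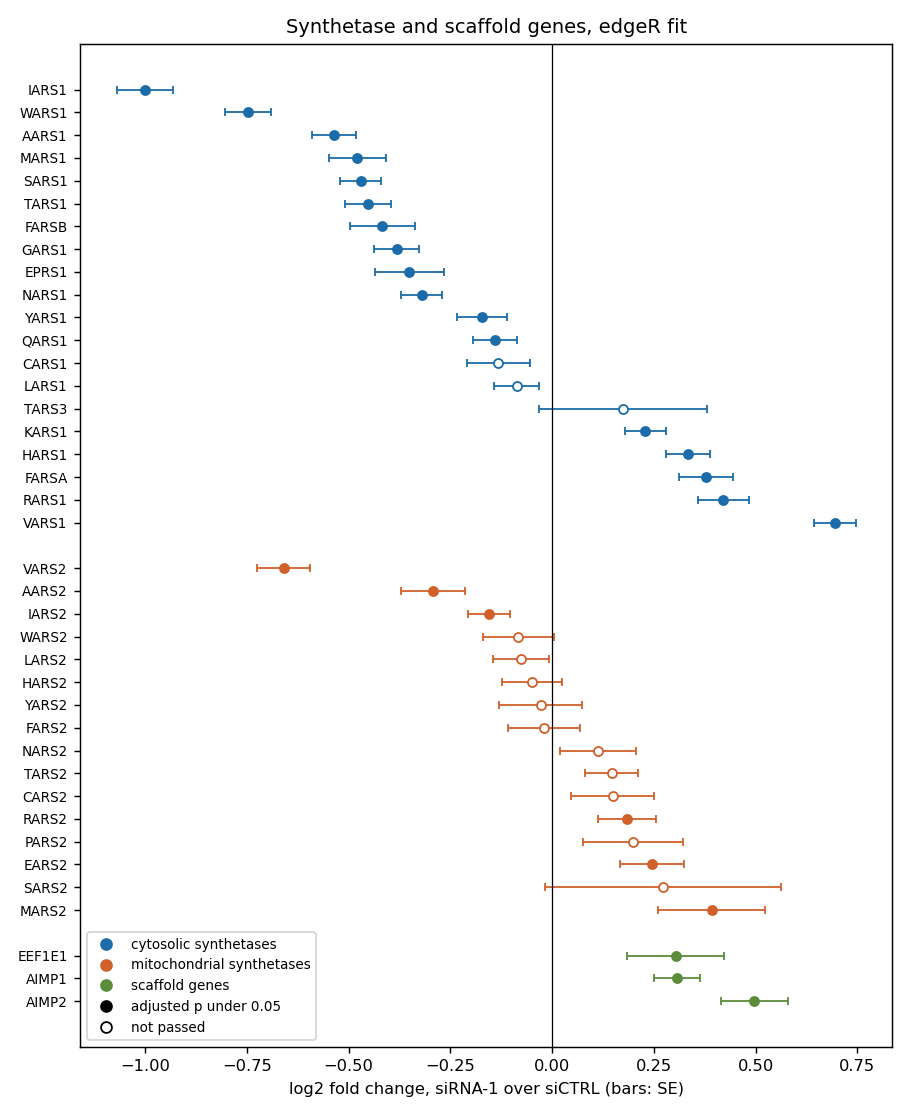
The log2 fold change of siRNA-1 over siCTRL (horizontal axis) with its SE for the 39 genes, sorted within cytosolic enzymes, mitochondrial enzymes and scaffold genes, with filled points for adjusted p under 0.05. Cytosolic enzymes spread from -1.0002 (IARS1) to 0.70 (VARS1), most mitochondrial enzymes lie near 0 and the scaffold genes lie to the right.

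The largest fall was that of IARS1, the cytosolic isoleucine enzyme. IARS1 (ENSG00000196305, minus strand of chromosome 9, 92210207 to 92293756, GRCh38) had 309, 311 and 305 CPM in the siRNA-1 cultures, against 564, 685 and 603 CPM in the siCTRL cultures. The groups were far apart, and the siRNA-1 cultures lay within 6 CPM of one another while siCTRL 2 was the highest control. IARS1 fell 2.00-fold (log2 fold change -1.0002, SE 0.0679, adjusted p = 1.92e-07, edgeR). WARS1, the tryptophan enzyme, whose gene is also known as a target of interferon, had 135, 136 and 128 CPM in siRNA-1, against 216, 234 and 219 CPM in siCTRL libraries, a fall of 1.68-fold (adjusted p = 3.87e-07, edgeR). WARS1 (ENSG00000140105) lies on the minus strand of chromosome 14 from 100333788 to 100376805. AARS1, the alanine enzyme, had 156, 155 and 146 CPM in siRNA-1, against 215, 228 and 219.7 CPM in siCTRL libraries, 1.45-fold lower (log2 fold change -0.54, SE 0.0542). No siRNA-1 library reached the lowest control library for any of these 3 genes.

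Further falls ranged from 1.25-fold to 1.39-fold. MARS1, the methionine enzyme that also charges the initiator tRNA, had 176, 177 and 178 CPM in siRNA-1, against 234, 276 and 229 CPM in siCTRL libraries (log2 fold change -0.48). SARS1, which charges serine and selenocysteine tRNA, averaged 237 ± 5.55 CPM in siRNA-1 and 328 ± 8.96 CPM in siCTRL cells (SD, n = 3 each). TARS1, the threonine enzyme, averaged 475 ± 8.11 CPM in siRNA-1 and 649 ± 44.0 CPM in siCTRL cells. GARS1 (1.30-fold), EPRS1, which joins the glutamate and proline enzymes in a single chain (1.27-fold), NARS1 for asparagine (1.25-fold) and FARSB, the beta subunit of the phenylalanine enzyme (1.33-fold), fell as well. The highest adjusted p among these 7 was 0.00337 (EPRS1, edgeR), and in each of them the groups did not overlap.

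The smallest falls were not stable. YARS1, the tyrosine enzyme, averaged 244 ± 14.7 CPM in siRNA-1 and 275 ± 15.05 CPM in siCTRL cells (adjusted p = 0.0284, edgeR), and its call was lost without siRNA-1 replicate 1 (0.0871) or replicate 3 (0.151). QARS1, the glutamine enzyme, averaged 182 ± 5.79 CPM in siRNA-1 and 200.4 ± 7.97 CPM in siCTRL cells (adjusted p = 0.0395, edgeR). Its call was lost without siCTRL replicate 3 (0.0577) and without siRNA-1 replicate 1 (0.0610), 2 (0.156) or 3 (0.122). LARS1 for leucine (log2 fold change -0.09, adjusted p = 0.187, edgeR) and CARS1 for cysteine (-0.13, adjusted p = 0.160, edgeR) did not pass, although CARS1 passed without siCTRL replicate 1 (0.0494). TARS3, a paralog of TARS1, was among the least abundant members at 3.92 ± 0.889 CPM in siRNA-1 and 3.46 ± 0.258 CPM in siCTRL cells and did not pass.

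In 11 of the 12 falls the level in siCTRL 2 was above the mean of the other controls, by a median of 0.11 on the log2 scale over the 12. Without siCTRL 2 the same number of cytosolic enzymes, 12, were called lower and 5 higher, and the median log2 fold change of the 20 genes was -0.19.

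Against this direction, 5 cytosolic enzymes rose, and these calls held in every alternative run. VARS1, the valine enzyme, had 231, 241 and 235 CPM in siRNA-1, against 147, 147 and 142 CPM in siCTRL libraries. It rose 1.62-fold (log2 fold change 0.70, SE 0.0507, adjusted p = 3.34e-07, edgeR), and each of its siRNA-1 libraries lay above every control. VARS1 (ENSG00000204394) lies on the minus strand of chromosome 6 from 31777518 to 31795953. RARS1, the arginine enzyme, had 208, 195 and 201 CPM in siRNA-1, against 159.7, 137 and 154 CPM in siCTRL libraries, a rise of 1.34-fold. FARSA, the alpha subunit of the phenylalanine enzyme, rose 1.30-fold, HARS1 for histidine 1.26-fold and KARS1 for lysine 1.17-fold. The highest adjusted p among the 5 was 0.0020 (KARS1, edgeR), and the groups did not overlap in any of them.

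**Figure D2:**
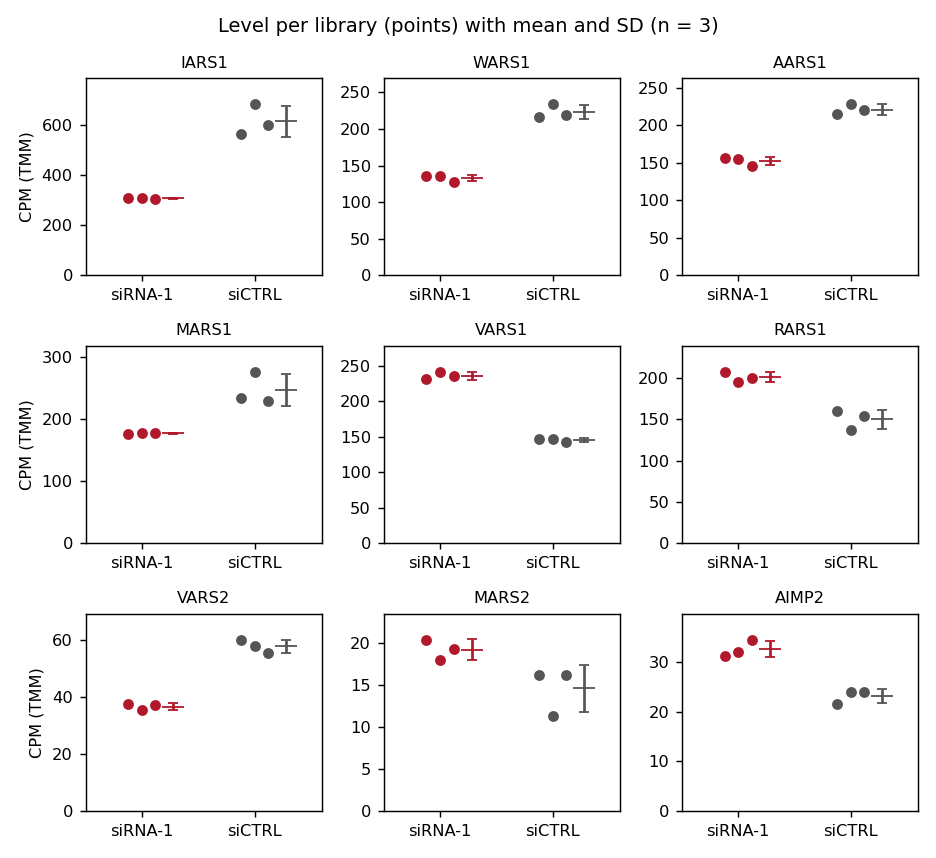
Level in CPM (vertical axes, from 0) of 9 genes in each siRNA-1 (left, red) and siCTRL (right, grey) library, with mean and SD (n = 3). IARS1, WARS1, AARS1, MARS1 and VARS2 are lower in every siRNA-1 library, and VARS1, RARS1, MARS2 and AIMP2 are higher.

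The subunits of the phenylalanine enzyme moved apart. The active enzyme is a tetramer of alpha subunits (FARSA) and beta subunits (FARSB) in equal number. FARSA had 129, 132 and 124 CPM in siRNA-1, against 105, 89.9 and 100.4 CPM in siCTRL libraries. FARSB had 39.2, 39.4 and 42.0 CPM in siRNA-1, against 53.0, 48.7 and 59.2 CPM in siCTRL libraries. Neither gene overlapped between groups, and the ratio of FARSA to FARSB in CPM, not corrected for length, was 3.20 ± 0.208 in siRNA-1 and 1.84 ± 0.146 in siCTRL cells (SD, n = 3 each).

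The cytosolic enzymes were also split by whether they are commonly listed as targets of ATF4, a list written from background knowledge at a time when a fall of the amino acid stress response in these cells was already known. The 12 listed enzymes were AARS1, CARS1, EPRS1, GARS1, IARS1, LARS1, MARS1, NARS1, SARS1, TARS1, WARS1 and YARS1. Of these 10 fell (83.3%) and 0 rose, and the median of their log2 fold changes was -0.42. Of the 8 others 2 fell (25%, FARSB and QARS1), 5 rose (62.5%) and TARS3 did not pass, with a median of 0.28. Of all genes tested 31.0% fell and 31.5% rose. As the list was written with the fall of the stress response known, the split is a description, and a role of ATF4 was not tested. The number of listed enzymes called lower ranged from 9 to 11 when a library was left out, and 5 of the others were called higher each time. For the others called lower, 1 was left in place of 2 without siCTRL replicate 3 or any 1 siRNA-1 library.

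Of 6 genes around the sensing of uncharged tRNA, 3 fell (50%), 2 rose (33.3%) and 1 did not pass. Of all genes tested 31.0% fell and 31.5% rose. ATF4 itself averaged 212 CPM in siRNA-1 and 329 CPM in siCTRL cells (log2 fold change -0.63). ASNS, the asparagine synthetase and a target of ATF4, averaged 44.1 CPM in siRNA-1 and 235 CPM in siCTRL cells (-2.42). IMPACT, an inhibitor of GCN2 activation, fell to 7.80 CPM in siRNA-1 cells, against 29.8 CPM in siCTRL cells (-1.93). EIF2AK4, the GCN2 kinase, rose (0.17), as did EIF2S1, the alpha subunit of the initiation factor that GCN2 phosphorylates (0.38), and GCN1, its coactivator, did not pass (-0.04). The highest adjusted p among the 5 that changed was 0.0105 (EIF2AK4, edgeR). RNA levels do not show whether the kinase was active.

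The promoters of these genes were searched for 3 motifs, chosen after the values were seen, in windows of 250 bases before to 50 after each annotated start (RefSeq, GRCh38.p14). A promoter was given for 33 of the 39 genes, and LARS1, TARS3, VARS1, YARS1, AARS2 and VARS2 had no entry. The composite element bound by ATF4 with C/EBP partners, TGATGNAA on either strand, was found in 7 of 16 cytosolic enzyme genes, 1 of 14 mitochondrial enzyme genes (YARS2) and 0 of 3 scaffold genes. It was present in 278 of the 10134 tested genes with a promoter (2.74%) and in 3.62% of all promoters in the table. It was found in 6 of the 11 cytosolic genes that fell and in 1 of the 5 that did not fall (CARS1), and all 7 were among the 10 listed ATF4 targets with a promoter. The stretches below show it because the genes that carry it include IARS1, AARS1 and MARS1, 3 of the largest falls. Each is 60 bases, written on the strand of the gene from 5′ to 3′, with the match in capitals.
IARS1, chr9:92293677-92293736, minus strand: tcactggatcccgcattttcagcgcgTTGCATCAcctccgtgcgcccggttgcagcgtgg
AARS1, chr16:70289660-70289719, minus strand: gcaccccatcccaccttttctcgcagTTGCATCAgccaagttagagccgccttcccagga
MARS1, chr12:57488038-57488097, plus strand: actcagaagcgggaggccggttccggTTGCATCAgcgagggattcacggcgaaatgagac
TARS1, chr5:33440941-33441000, plus strand: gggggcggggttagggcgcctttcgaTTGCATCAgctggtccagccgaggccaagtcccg
NARS1, chr18:57621789-57621848, minus strand: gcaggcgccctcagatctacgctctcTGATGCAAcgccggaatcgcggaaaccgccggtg
CARS1, chr11:3057392-3057451, minus strand: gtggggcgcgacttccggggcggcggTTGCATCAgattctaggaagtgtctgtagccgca
GARS1, chr7:30594819-30594878, plus strand: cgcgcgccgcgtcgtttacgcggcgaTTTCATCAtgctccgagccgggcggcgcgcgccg
The match TTGCATCA is the reverse complement of TGATGCAA, so 6 of the 7 genes carry the same 8 letters on one strand or the other, and GARS1 carries a variant. In 6 of the 7 the match lies within 33 bases of an annotated start, and in AARS1 it lies 187 bases before it. WARS1 and SARS1, which fell, had no match in these windows. The counts of this motif were not tested, and VARS1, the largest rise, is among the genes without an entry.

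The core letters of the NRF1 site, CGCATGCG, a motif of many genes for mitochondrial proteins, were found in 1 of 33 promoters (MARS2), against 448 of the 10134 tested genes (4.42%) and 2.02% of all promoters. The E-box CACGTG, bound by MYC and related factors, was found in 5 of 33 promoters (IARS1, CARS2, EARS2, MARS2 and AIMP2), against 12.5% of tested genes and 7.26% of all promoters. A match is a run of letters and was not tested for binding.

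A word of 7 bases in the 3′ untranslated region, GCTCACT, had been picked in these same data as the one most enriched among genes that fell strongly, and it was counted in the longest region of each gene (GENCODE 29). It was present in 2 of 38 members with such a region (5.26%), against 18.8% of all tested genes, 29.4% of genes that fell and 11.3% of genes that rose. Its only carriers among the members, TARS1 (log2 fold change -0.45) and IARS2 (-0.15), were both lower in siRNA-1 cells, and the other 13 members that fell did not carry it. The site of IARS2 is shown with the word in capitals, on the strand of the gene.
IARS2: tattaacaGCTCACTcgagcaagaac

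Several cytosolic enzymes work in the multisynthetase complex, an assembly held together by AIMP1, AIMP2 and EEF1E1 (also called AIMP3). Of the 10 complex genes measured here 4 fell (40%), 5 rose (50%) and 1 did not pass. The shares over all genes tested were 31.0% lower and 31.5% higher. The median log2 fold change of the 10 genes was 0.071, and changes went in both directions. The falls were those of the enzymes IARS1, MARS1, EPRS1 and QARS1, LARS1 did not pass, and RARS1 and KARS1 rose with the scaffolds. AIMP2, which also has roles in cell death signalling, had 31.3, 32.1 and 34.5 CPM in siRNA-1, against 21.6, 23.9 and 24.0 CPM in siCTRL libraries. It rose 1.41-fold (log2 fold change 0.50, SE 0.0823, adjusted p = 0.00024, edgeR), with no overlap between groups. AIMP2 shares 28.9% of its exonic bases with EIF2AK1 on the opposite strand, which rose by 0.50 on the log2 scale too, and whether counting used strand was not stated. AIMP1, the precursor of a secreted cytokine, averaged 96.6 ± 2.76 CPM in siRNA-1 and 78.1 ± 2.08 CPM in siCTRL cells, a rise of 1.24-fold. AIMP1 shares 11.6% of its exonic bases with TBCK on the opposite strand, which rose by 0.43 on the log2 scale. The part of shared reads in the rises of AIMP1 and AIMP2 was not tested. EEF1E1 averaged 10.4 ± 0.886 CPM in siRNA-1 and 8.39 ± 0.355 CPM in siCTRL cells (adjusted p = 0.0436, edgeR), and its call was lost without siCTRL replicate 1 (0.136), 2 (0.0593) or 3 (0.0590) and without siRNA-1 replicate 1 (0.0913) or 3 (0.154). It shares 18.7% of its exonic bases with EEF1E1-BLOC1S5 on the same strand, which was listed at 0 CPM, so reads in those bases may not have been assigned to it.

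By structural class, 5 of 9 cytosolic class I enzymes fell (55.6%) and 2 rose (22.2%). Of 10 cytosolic class II enzymes 6 fell (60%) and 3 rose (30%), so both classes held falls and rises. Of all genes tested 31.0% fell and 31.5% rose. EPRS1, which holds a domain of each class, stands outside both counts.

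Among mitochondrial enzymes the clearest change was in VARS2, the valine enzyme. VARS2 (ENSG00000137411, plus strand of chromosome 6, 30908242 to 30926459) had 37.6, 35.4 and 37.1 CPM in siRNA-1, against 60.2, 58.0 and 55.6 CPM in siCTRL libraries. The groups were far apart, with a fall of 1.58-fold (log2 fold change -0.66, SE 0.0656, adjusted p = 4.07e-06, edgeR). It shares 22.0% of its exonic bases with GTF2H4 on the same strand, a gene whose log2 fold change was -0.21, and the part of those reads in the result was not tested. AARS2, for alanine, had 21.3, 21.8 and 22.5 CPM in siRNA-1, against 25.9, 27.0 and 27.5 CPM in siCTRL libraries, and fell 1.23-fold (adjusted p = 0.00641, edgeR). IARS2, for isoleucine, averaged 191 ± 1.17 CPM in siRNA-1 and 213 ± 7.12 CPM in siCTRL cells (adjusted p = 0.0193, edgeR). Its call was lost without siCTRL replicate 3 (0.0718) and without siRNA-1 replicate 1 (0.0754), 2 (0.0590) or 3 (0.0725).

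The 3 mitochondrial rises were small, and each call depended on single libraries. MARS2, for methionine, had 20.4, 17.9 and 19.3 CPM in siRNA-1, against 16.2, 11.3 and 16.2 CPM in siCTRL libraries (log2 fold change 0.39, adjusted p = 0.0204, edgeR), with siCTRL 2 the lowest. Its call was lost without siRNA-1 replicate 1 (0.0785) or 3 (0.0553), and without siCTRL 2 its log2 fold change was 0.23, a difference of over 1.5 times. EARS2, for glutamate, averaged 30.02 ± 1.13 CPM in siRNA-1 and 25.3 ± 1.41 CPM in siCTRL cells (adjusted p = 0.0177, edgeR), a call lost without siCTRL replicate 1 (0.0506) and without siRNA-1 replicate 1 (0.0685) or 2 (0.0517). RARS2, for arginine, averaged 35.2 ± 0.575 CPM in siRNA-1 and 31.0 ± 1.44 CPM in siCTRL cells (adjusted p = 0.0428, edgeR). That call held in 1 of the 6 fits that leave out a library, the one without siCTRL replicate 2 (0.0280), and was lost in the others (0.0501 to 0.182).

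The other 10 mitochondrial enzymes, for cysteine (CARS2), phenylalanine (FARS2), histidine (HARS2), leucine (LARS2), asparagine (NARS2), proline (PARS2), serine (SARS2), threonine (TARS2), tryptophan (WARS2) and tyrosine (YARS2), had log2 fold changes from -0.08 (WARS2) to 0.27 (SARS2) and did not pass. Of these, TARS2 came nearest, with 40.9, 42.5 and 42.0 CPM in siRNA-1, against 38.1, 38.8 and 36.4 CPM in siCTRL libraries (adjusted p = 0.0728, edgeR). TARS2 passed with no scaling beyond library size (0.18, adjusted p = 0.0345, edgeR), and LARS2 (lower, 0.0486) and PARS2 (higher, 0.0402) passed without siCTRL replicate 2. SARS2 was counted at 1.36 ± 0.252 CPM in siRNA-1 and 1.13 ± 0.166 CPM in siCTRL cells, and 46.2% of its exonic bases are shared with the gene AC011455.2 on the same strand. Its level is therefore uncertain, since reads in shared bases may not have been assigned to it.

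The cytosolic and mitochondrial enzymes for the same amino acid could be set side by side for 13 amino acids, each pair measured in the same libraries. In 10 of the 13 the cytosolic log2 fold change was below the mitochondrial one. These 10 include leucine, cysteine and tyrosine, for which the log2 ratio overlapped between groups. For leucine the values were nearly equal, -0.087 for LARS1 and -0.077 for LARS2. The share over other pairs of genes was not computed. For isoleucine the ratio of IARS1 to IARS2 in CPM was 1.62 ± 0.00829 in siRNA-1 and 2.90 ± 0.297 in siCTRL cells (SD, n = 3 each). For methionine MARS1 fell (-0.48) while MARS2 rose (0.39), and for tryptophan WARS1 fell (-0.75) while WARS2 did not pass (-0.08). Alanine was the other amino acid besides isoleucine for which both enzymes fell, with -0.54 for AARS1 and -0.29 for AARS2.

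Valine ran the other way: VARS1 rose (0.70) and VARS2 fell (-0.66), and the ratio of VARS1 to VARS2 in CPM was 6.43 ± 0.352 in siRNA-1 and 2.51 ± 0.0642 in siCTRL cells. Histidine and arginine were the other pairs in which the cytosolic log2 fold change was the higher one, and for arginine both enzymes rose. The difference in log2 ratio between groups was tested for the 13 pairs by a two-sided exact permutation test. With 3 libraries against 3 the smallest p it allows is 0.10, which 10 pairs reached, and adjusted over the 13 pairs it was 0.13, so no pair could pass. Those 10 include valine, histidine and arginine, so they are not the 10 with the lower cytosolic value. For leucine the log2 ratio averaged 2.61 ± 0.0524 in siRNA-1 and 2.62 ± 0.167 in siCTRL cells, and for cysteine and tyrosine the groups overlapped as well.

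**Figure D3:**
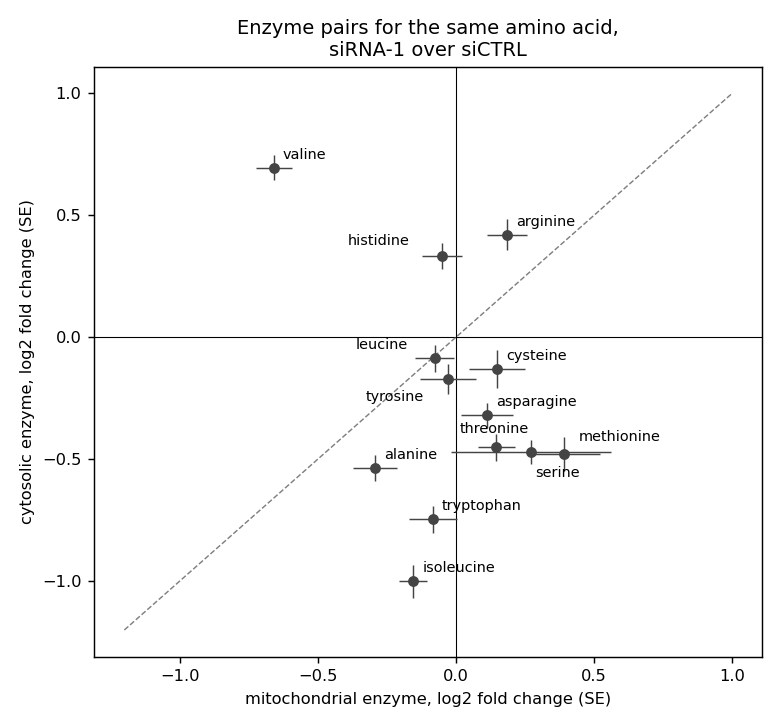
The log2 fold change of the cytosolic enzyme (vertical axis) against that of the mitochondrial enzyme (horizontal axis) for 13 amino acids, with SE and a dashed line of equal change. In 10 pairs the point lies below the line, and valine lies at the upper left, with VARS1 at 0.70 and VARS2 at -0.66.

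Cytosolic enzymes were the more abundant set. Per kilobase of exonic length, which counts every annotated exon and so understates genes with many unused exons, the median level of cytosolic enzymes was 37.0 CPM per kb in siRNA-1 and 39.02 CPM per kb in siCTRL cells. That of mitochondrial enzymes was 5.66 in siRNA-1 and 5.92 CPM per kb in siCTRL cells. The highest cytosolic levels were those of TARS1 (83.0 ± 1.42 in siRNA-1 and 114 ± 7.70 CPM per kb in siCTRL cells) and GARS1 (82.2 ± 2.50 in siRNA-1 and 107 ± 5.42 CPM per kb in siCTRL cells), which did not differ beyond their spread (SD, n = 3 each). SARS1 (85.4 ± 2.34) and IARS1 (83.4 ± 8.36 CPM per kb, SD, n = 3) came next in siCTRL and did not differ beyond their spread. Among mitochondrial enzymes IARS2 stood out, with 45.9 in siRNA-1 and 51.1 CPM per kb in siCTRL cells, followed in siCTRL by RARS2 at 12.2.

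**Figure D4:**
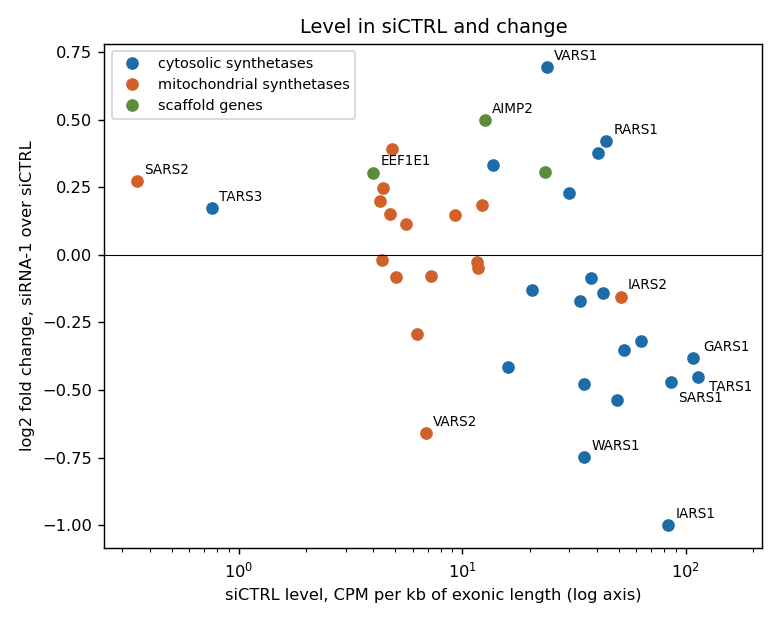
Log2 fold change of siRNA-1 over siCTRL (vertical axis) against the siCTRL level in CPM per kb of exonic length (horizontal log axis) for the 39 genes. The most abundant cytosolic enzymes, TARS1 and GARS1, fell, and IARS2 is the mitochondrial enzyme at the level of the cytosolic ones.

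Summed over the 20 genes, cytosolic synthetase transcripts made up 4080, 4070 and 3981 CPM in the siRNA-1 libraries, against 4765, 5250 and 4811 CPM in the siCTRL libraries. The groups did not overlap, and the mean sum was 18.2% lower in siRNA-1 cells. For the 16 mitochondrial genes the sums were 623, 610.4 and 614 CPM in siRNA-1, against 651, 624 and 655 CPM in siCTRL libraries, 4.26% lower on average. For the 3 scaffold genes they were 135, 140.2 and 144 CPM in siRNA-1, against 109, 112 and 108 CPM in siCTRL libraries. The ratio of the cytosolic to the mitochondrial sum lay between 6.49 and 6.67 in siRNA-1 and between 7.33 and 8.41 in siCTRL libraries, with siCTRL 2 the highest. These are shares of all counted RNA and not amounts per cell.

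**Figure D5:**
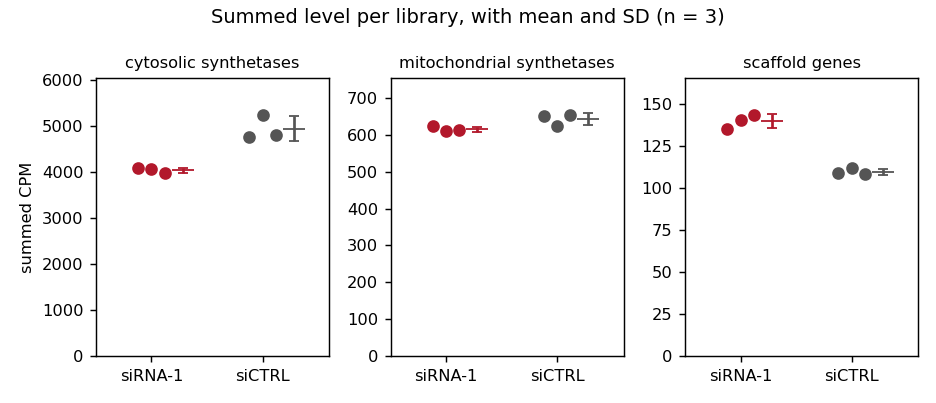
Summed level in CPM (vertical axes, from 0) of the 20 cytosolic enzymes, 16 mitochondrial enzymes and 3 scaffold genes in each siRNA-1 (left, red) and siCTRL (right, grey) library, with mean and SD (n = 3). Cytosolic sums are lower in every siRNA-1 library (3981 to 4080 CPM) and scaffold sums are higher.

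Other steps of tRNA supply showed no common fall. Of all genes tested 31.5% rose and 31.0% fell. Of 22 tested genes of tRNA processing and export 11 rose (50%) and 2 fell (9.09%). The falls were those of XPOT, the nuclear export receptor of tRNA, at 232 CPM in siRNA-1 and 338 CPM in siCTRL cells (log2 fold change -0.54), and of RPP30, a subunit of RNase P (-0.42). TSEN34, a subunit of the tRNA splicing endonuclease, rose (0.67). Of 50 tRNA modification genes 19 rose (38%) and 9 fell (18%), among them TRMT61A (1.16), DUS1L (0.73) and YRDC (1.07), which rose, and CDKAL1 (-1.12) and ALKBH8 (-1.01), which fell and were named after their values were seen.

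Of 21 genes of RNA polymerase III and its factors, which transcribe tRNA genes, 9 rose (42.9%) and 3 fell (14.3%). The gene GTF3A, a factor for 5S rRNA transcription, fell to 38.7 CPM in siRNA-1 cells, against 109 CPM in siCTRL cells (log2 fold change -1.50), while GTF3C1, the largest subunit of the factor that binds tRNA genes, rose (0.66), as did POLR3E (0.63). The highest adjusted p among these 3 was 7.22e-06 (POLR3E, edgeR).

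Among further genes that act on charged tRNA, MTFMT, which formylates the mitochondrial initiator tRNA, fell (log2 fold change -0.81), as did SEPSECS (-0.56), the last enzyme of selenocysteine synthesis on its tRNA, and GATB (-0.27), a subunit of the mitochondrial enzyme that converts glutamate on tRNA to glutamine. QRSL1 (0.01) and GATC (-0.05), the other subunits of that enzyme, and PSTK (-0.38) did not pass. Of 4 tested genes of proofreading and peptidyl-tRNA release, ANKRD16, a cofactor of AARS1, fell (-0.47), PTRH2 rose (0.52), and DTD1 (-0.22) and DTD2 (0.09) did not pass. That is 25% in each direction, where 31.0% of all genes tested fell and 31.5% rose.

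Of 7 tested cytosolic elongation factors 2 fell and 2 rose (28.6% each, near the shares over all genes of 31.0% and 31.5%), and 3 did not pass. EEF1A1, which carries charged tRNA to the ribosome, averaged 3689 CPM in siRNA-1 and 5557 CPM in siCTRL cells (log2 fold change -0.59), EIF5A2 fell (-0.77), and EIF5A (0.62) and EEF1A2 (1.38) rose. EEF1A1 has many processed pseudogenes, so its reads are assigned with some uncertainty. Of 9 tested mitochondrial translation factors 3 fell (33.3%: MTRF1 at -0.80, GFM2 at -0.44 and GUF1 at -0.27) and 2 rose (22.2%: TUFM and MTIF2, each at 0.18).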

How the data were processed

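Total RNA of MDA-MB-231 cells was made into NEBNext Ultra libraries, per the labels. The authors deposited raw HTSeq counts per Ensembl gene for 6 libraries. Trimmomatic, STAR, HTSeq, kallisto and the build hg38 are named, without roles or versions, per the submitters' processing notes, but no annotation release or strand setting. All 20042 identifiers matched a symbol. The tools were edgeR 4.0.16 under R 4.3.3, with filterByExpr (minimum count 10, minimum total 15), TMM factors from 0.972 to 1.02, a fit of group alone and its quasi-likelihood test over 12440 genes, and an SE derived from the fold change and F. The steps were tested on simulated counts. Exonic lengths and overlaps came from GENCODE 29, and promoters from RefSeq (GRCh38.p14). Log2 CPM used a prior count of 2. Alternatives used DESeq2 1.42.0 and limma 3.58.1. The members, lists and motifs were chosen with earlier results of these data known. All members could be named, with the 3 smallest adjusted p of each other list and any member of lists of 10 or fewer genes. Some results of the lists are not reported here.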

Additional observations from a re-analysis of the deposited data

How the results depend on the processing

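Of the 26 changed members 19 kept their call and direction in all 14 alternatives, as did 7 of the 13 that did not pass. Those that lost a call in at least 1 were YARS1, QARS1, IARS2, RARS2, EARS2, MARS2 and EEF1E1. With no scaling beyond library size, which moved the median of all genes tested to 0.043, the median log2 fold change was -0.21 for cytosolic and 0.085 for mitochondrial enzymes. At a mean of at least 100 counts, where fewer genes were tested, they were -0.36 and -0.057. Leaving out 1 library gave medians from -0.27 to -0.19 for cytosolic and from -0.012 to 0.072 for mitochondrial enzymes, both lowest in size without siCTRL 2. It gave 10 to 13 cytosolic enzymes called lower and 5 higher, 2 to 4 mitochondrial enzymes lower and 0 to 4 higher, and 12 to 16 members lower and 7 to 11 higher. Called higher among mitochondrial enzymes were 1 by the DESeq2 Wald test and 0 at an adjusted p under 0.01, at which 7 members in all were higher. Of the cytosolic enzymes not listed as ATF4 targets, 1 was called lower with no scaling, with no filter on low counts, by the DESeq2 Wald test, with the replicate block and at an adjusted p under 0.01, and 1 to 2 when a library was left out. The causes were not tested.

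Values near 0 changed sign without passing: FARS2 was 0.018 and YARS2 0.011 with no scaling, and over the fits without 1 library FARS2 ranged from -0.090 to 0.026 and YARS2 from -0.14 to 0.035.

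The replicate numbers did not pair the samples: deviations of same-numbered libraries correlated at 0.067, -0.078 and -0.057. With the replicate block 14 members were called lower and 9 higher, QARS1, RARS2 and EEF1E1 losing their calls, and 3731 of all genes were lower and 3804 higher. Depth limits the low members most: SARS2 and TARS3 lay below 1 CPM per kb.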
